A study of Mus musculus with 2 samples.

Results

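The genes described here were the DNAJ and heat shock chaperones of the mouse, protein-coding genes chosen by their symbols. The symbols mark J-domain proteins (Dnaja, Dnajb and Dnajc), Hsp70 and Hsp110 proteins (Hspa and Hsph1) and small heat shock proteins (Hspb). They also mark BAG proteins (Bag1 to Bag6, labelled BAG exchange factors in the figures) and subunits of the CCT chaperonin (Cct2 to Cct8). The symbol rule matched 82 genes, and 2 of them (Dnajc19 and Hspa9, which serve mitochondrial protein import) were left out. The remaining 80 members were set against all 21000 protein-coding genes with a known coding RefSeq transcript on a chromosome that holds peaks. The assay was a chromatin immunoprecipitation with sequencing of NRF1 (nuclear respiratory factor 1), a transcription factor that binds GC-rich promoters. Both libraries were labelled as wild-type mouse skeletal muscle with an NRF1 antibody, without strain, age or sex; the methods of the study place the material in nuclear extracts, so every cell type of a muscle could contribute. The form on data deposited with the study, however, lists the second library as an input, and only 1 list of peaks was given, with names that carry the title of the first library. The list therefore had no replicate error, no contrast of groups was possible, and the values below describe 1 experiment.

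Chaperones of these families work in a relay. J-domain proteins hand unfolded polypeptides to Hsp70 and start its ATP hydrolysis. Several BAG proteins and the Hsp110 proteins release the nucleotide so that the client leaves. Small heat shock proteins hold unfolding proteins in a soluble state, and the CCT ring folds actin, tubulin and other clients. In muscle this machinery supports the folding and turnover of sarcomere proteins, and its stress-induced members are known targets of heat shock factor 1.

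A gene was counted as having a promoter peak where the summit of a peak, its point of highest signal, lay 1000 bp before to 100 bp after a transcription start. By this measure 20 of 80 members (25%, Wilson 95% interval 16.8 to 35.5) had a promoter peak, beside 2804 of 21000 protein-coding genes (13.4%). The interval covers counting error only, since paralogs and neighbouring genes are not independent draws. The 20 genes held 21 peaks, because Bag4 had 2, out of 2607 promoter peaks and 3226 peaks in all.

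The DNA under the peaks is shown first, because the members with a peak differed in how the NRF1 palindrome was spelled. The motif searched was GCGCATGCGC, which reads the same on both strands, with at most 1 mismatch and centred within 100 bp of the summit. It was found at 15 of 21 member peaks (71.4%, 50 to 86.2) and at 1721 of 2607 promoter peaks (66.0%). The following windows of 30 bases, read from the mm10 RefSeq genome on the strand of the gene, carry the motif copy in capitals with 10 bases on either side; they were chosen to show each spelling among the members.
Bag1 (chr4:40948494-40948523, minus strand): cccaccccatGCGCAGGCGCagagtgctcg
Hspa12a (chr19:58943693-58943722, minus strand): gcccagcagcGCGCAGGCGCgactccgttg
Dnaja3 (chr16:4684097-4684126, plus strand): gtgacggtctGCGCAGGCGCagtgtccccg
Bag4 (chr8:25785210-25785239, minus strand): cctcccgcagGCGCCTGCGCaatgggacgg
Cct3 (chr3:88296905-88296934, plus strand): ccgtgctttgGCGCTTGCGCagacattctg
Dnajc8 (chr4:132535536-132535565, plus strand): acgtgaggctGCGCTTGCGCagaacggtca
Hspa8 (chr9:40800920-40800949, plus strand): ctgccgggtcGCGCACGCGCactcgccggc
Hspb11 (chr4:107253489-107253518, plus strand): ctgggtaggcGCGCGTGCGCggggccggca
Dnajc3 (chr14:118937651-118937680, plus strand): tctagggcccGCGCATGCGGactcggcggc
Cct5 (chr15:31601796-31601825, minus strand): ggtctgcactGCGCATGCGCgggattctgc

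The exact palindrome occurred at 1 member peak, that of Cct5 (4.76%, 0.846 to 22.7), beside 285 promoter peaks overall (10.9%), a share within that interval. The other 14 sites each had 1 mismatch. Counted from 1 at the 5′ end of the motif on the strand of the gene, the change lay in the central pair of letters at 13 of them (T6G, A5C, A5T, T6C or A5G), and at the outer edge only in Dnajc3 (C10G). Both outer GCGC runs were thus intact at 14 of 15 member sites (93.3%), beside 1318 of 1721 sites (76.6%) at promoter peaks in general. With only 15 member sites and no interval computed, these shares are not read as a difference. GCGCAGGCGC or its reverse complement was the most frequent spelling, with 8 member peaks (Bag1, Bag4, Dnaja3, Dnajb9, Dnajc11, Dnajc25, Hspa12a and Hspa4l) and 553 promoter peaks (32.1% of those with the motif). GCGCAAGCGC or its reverse complement occurred at 3 (Cct3, Dnajc5 and Dnajc8), beside 116 promoter peaks (6.74%). GCGCACGCGC was found at Hspa8 and its reverse complement at Hspb11, beside 364 promoter peaks (21.2%). The copies sat close to the point of highest signal: the centre of the motif was a median of 10.5 bp from the summit at the member peaks and 13.5 bp at all promoter peaks with the motif, and 13 of the 15 lay within 25 bp. Dnajb9 was farthest, at 70.5 bp.

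Of the 7 classes, type A J-domain proteins (2 of 4) and BAG proteins (3 of 6) had peaks at 50% of their genes, and the small heat shock proteins had the fewest, 1 of 8 (12.5%). Hsp70 and Hsp110 proteins had 4 of 13 (30.8%), CCT subunits 2 of 9 (22.2%), type C J-domain proteins 6 of 27 (22.2%) and type B J-domain proteins 2 of 13 (15.4%). The classes are small, and their intervals overlapped one another. All but that of the BAG proteins (18.8 to 81.2) and that of the type A proteins (15.0 to 85.0) included the 13.4% of all genes. Every gene of these classes had a CpG-rich start, as defined below. Both intervals included the 23.1% of all genes with such a start.

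**Figure D1:**
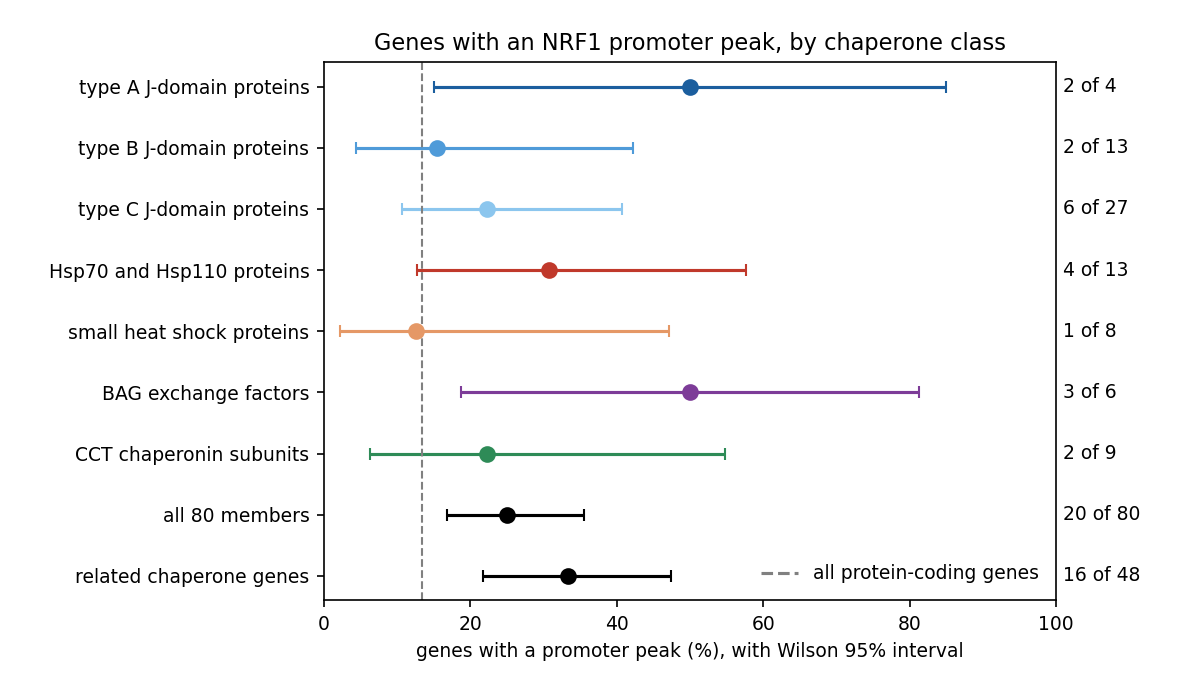
Share of genes with an NRF1 promoter peak (percent, horizontal axis) in each chaperone class, in all members and in related chaperone genes; points are shares, bars are Wilson 95% intervals, and the dashed line is the share of all protein-coding genes, 13.4%. The members sit at 25%, and the classes range from 12.5% to 50% with wide intervals.

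Fold enrichment, the height of a peak over the local background as given by the peak caller, ranged from 5.17 to 23.3 at the member peaks. Their median was 13.5 (quartiles 10.3 to 16.3), beside 11.1 (7.90 to 16.4) for all promoter peaks, and 14 of 21 lay above that median of all. The highest were Bag6 and Cct3, the lowest Dnaja2 and the farther of the peaks of Bag4. Statistical strength, given as the negative log10 of the q-value, had a median of 36.1 at the member peaks and 25.3 at all promoter peaks.

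**Figure D2:**
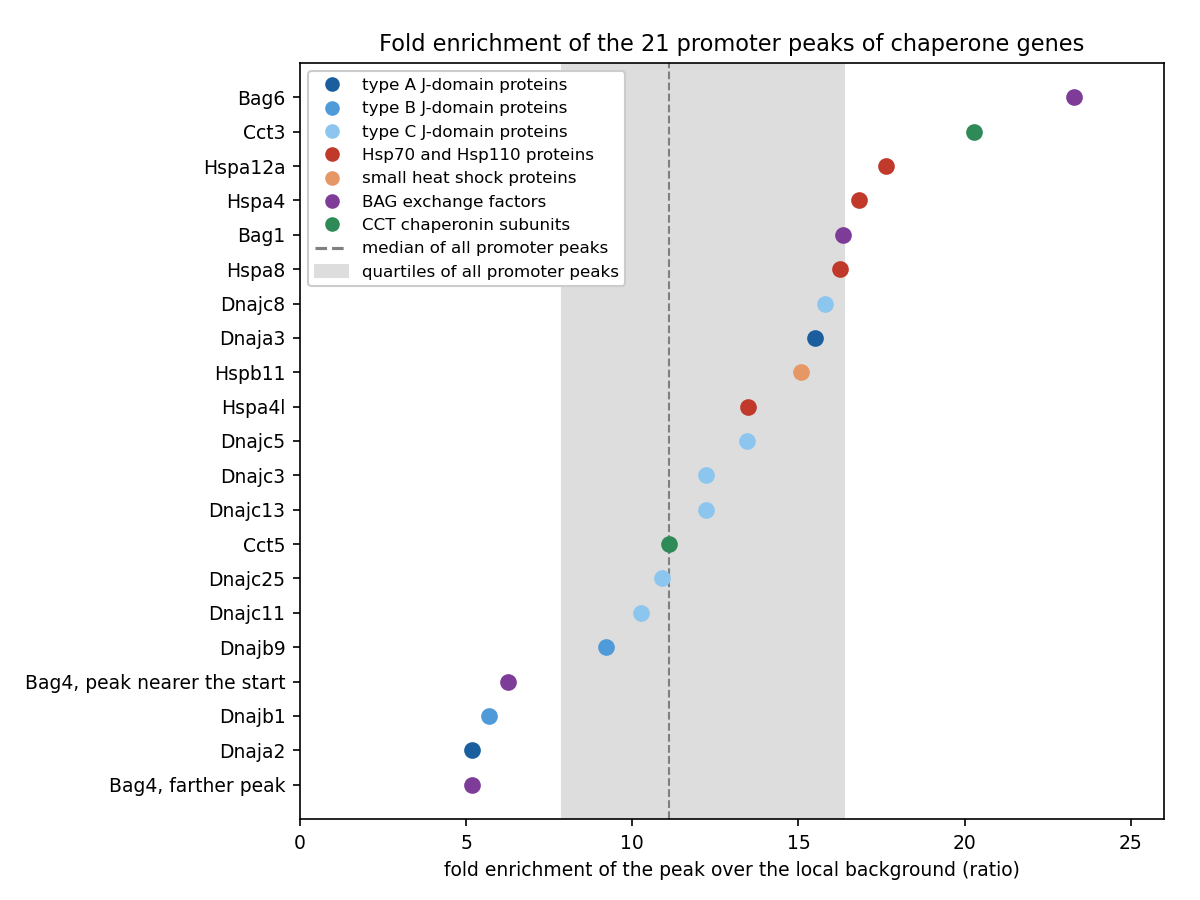
Fold enrichment (ratio over local background, horizontal axis) of each of the 21 promoter peaks of chaperone genes, coloured by class; the dashed line and grey band are the median and quartiles of all 2607 promoter peaks. Bag6 at 23.3 and Cct3 at 20.3 lie above the band with Hspa12a and Hspa4, and 4 peaks of Bag4, Dnajb1 and Dnaja2 lie below it.

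Among the J-domain proteins, which choose the clients of Hsp70, 10 of 44 genes had a promoter peak (22.7%, 12.8 to 37.0), an interval that includes the 13.4% of all genes. Dnaja3, the mitochondrial type A protein, had a fold enrichment of 15.5 at chr16:4683738-4684241, with its summit 19 bp inside the first, noncoding exon and 2 copies of the motif, at -43.5 and 41.5 bp from the start. Dnaja2, a cytosolic co-chaperone of Hsc70, had one of the weakest member peaks, with a fold of 5.17 and a negative log10 q of 4.48 at chr8:85555222-85555391. Its summit lay 51 bp after the start and no motif copy was found, even with 2 mismatches. A second peak of similar height (5.70) lay in an intron of Dnaja2, 354 bp after the start and outside the promoter window.

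The peaks of the type B proteins lay below the median fold of all promoter peaks (11.1), that of Dnajb9 within the quartiles (7.90 to 16.4). Dnajb1, the classical stress-inducible Hsp40, had a fold of 5.69 (negative log10 q 7.73) at chr8:83608008-83608234, with the summit at -86 bp and no motif near it; a copy of the motif was present at -38.5 bp from another start of the gene. Dnajb9, a J-protein of the endoplasmic reticulum, had a fold of 9.21 (negative log10 q 23.7) at chr12:44210158-44210479. Its summit was at -166 bp and nearer to the microRNA gene Mir5627, which starts 245 bp away on the opposite strand (-79 bp). No peak met the rule at the other 11 type B genes, which include Dnajb6, whose human counterpart is mutated in a limb-girdle muscular dystrophy, and Dnajb2, Dnajb4 and Dnajb5.

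Type C proteins carry the J-domain in otherwise unrelated proteins, and the 6 with a peak work in different compartments. Dnajc8, a protein associated with the spliceosome, had the highest fold of the class, 15.8 (negative log10 q 36.1), at chr4:132535420-132535708, with its summit at -17 bp. It was followed by Dnajc5, the cysteine string protein of secretory vesicles, with 13.5 at -7 bp. Dnajc3, an inhibitor of stress kinases in the endoplasmic reticulum, and Dnajc13, an endosomal protein, had the same fold of 12.2, at -260 and -50 bp. Dnajc25 had 10.9 at -61 bp, and Dnajc11, which belongs to the machinery of mitochondrial cristae, 10.3 at -94 bp. The 6 thus fell within a range of 10.3 to 15.8. Only Dnajc13, whose peak spanned chr9:104262838-104263236 (negative log10 q 32.3), lacked the motif at its summit, with a copy of 2 mismatches 13.5 bp away.

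In the Hsp70 and Hsp110 family 4 genes had a promoter peak: Hspa8, Hspa4, Hspa4l and Hspa12a. Hspa8, which encodes Hsc70, the main Hsp70 of unstressed cells, had a fold of 16.3 (negative log10 q 54.9) at chr9:40800757-40801124. The summit was at -352 bp, the farthest upstream of all member peaks, and the motif was centred at -341.5 bp. Hspa1a and Hspa1b, which encode the inducible Hsp70, had no promoter peak. The nearest summit, in the promoter of Lsm2 (fold 17.5), was 9664 bp from Hspa1a and 22582 bp from Hspa1b. The same peak was 9117 bp from the testis paralog Hspa1l. Only uniquely mapped reads were kept, so any reads matching both Hspa1a and Hspa1b would not have counted toward a peak. Whether this removed signal there was not tested. Hspa5, which encodes BiP of the endoplasmic reticulum, was without a promoter peak too, its nearest summit being 17666 bp away.

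The Hsp110 proteins act as exchange factors for Hsp70. Hspa4 had a fold of 16.8 (negative log10 q 37.8) at chr11:53300522-53300724 and Hspa4l one of 13.5 at -190 bp, whereas Hsph1, the classical stress-induced Hsp110, had no promoter peak and its nearest summit was 407126 bp away. Hspa4 had no copy of the motif in its promoter with 1 mismatch. A copy with 2 mismatches was centred 2.5 bp from its summit, at -144 bp. Hspa12a, a distant relative of Hsp70, had the highest fold of the family, 17.6, with 2 copies of the motif at -16.5 and -35.5 bp. That peak lies at a RefSeq start that GENCODE M21 basic does not give for Hspa12a, and with GENCODE starts this gene was not counted.

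Several BAG proteins compete with Hsp110 for release of nucleotide from Hsp70. Bag6, which guides tail-anchored and mislocalized proteins, had the highest fold of any member, 23.3 (negative log10 q 74.6, rank 195 of the 2607 promoter peaks), in a peak of 939 bp at chr17:35134890-35135828. Its summit, 27 bp before the start, had no motif within 100 bp with 1 mismatch, but one with 2 mismatches 3.5 bp away. A copy with 1 mismatch lay 503.5 bp from the summit inside the same peak, at -54.5 bp from another start. Bag1 had a fold of 16.3 and a negative log10 q of 64.3 at chr4:40948321-40948722. Bag4 carried 2 lower peaks. The one at chr8:25785061-25785301 had a fold of 6.26 (negative log10 q 13.2), a summit at -25 bp and the motif. The one at chr8:25785378-25785513 had a fold of 5.17 (negative log10 q 4.48), a summit at -249 bp and no motif. Bag3, which with Hspb8 directs damaged sarcomere proteins to autophagy, had no promoter peak, and its nearest summit was 62173 bp away; Bag2 and Bag5 had none.

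The CCT ring is built from 8 different subunits, and the symbol rule took in 9 genes, testis forms included. Cct3 had a fold of 20.3 (negative log10 q 63.7) at chr3:88296611-88297154, with 2 copies of the motif at -215.5 and -164.5 bp and the summit 2.5 bp from the nearer of them. Cct5 had a fold of 11.1 (negative log10 q 37.6) at chr15:31601452-31601923, its summit 27 bp inside the first, noncoding exon and 8.5 bp from the exact palindrome. The genes of the other ring subunits in the rule (Cct2, Cct4, Cct6a, Cct7 and Cct8) were without a promoter peak, as was Tcp1, the founding subunit, which the rule did not take in.

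Of the 8 small heat shock protein genes only Hspb11 had a peak (12.5%, beside 13.4% of all genes), with a fold of 15.1 (negative log10 q 44.9) at chr4:107253222-107253891. Its product is a subunit of intraflagellar transport rather than a classical chaperone of muscle. Hspb1, Hspb2, Hspb3, Hspb6, Hspb7, Hspb8 and Hspb9 had none, and neither had Cryab, the αB-crystallin of the Z disc, which the rule did not take in. Of these Hspb genes only Hspb1 and Hspb6 had a CpG-rich start. Hspb6 had a summit 6564 bp away, in the promoter of Lin37.

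Summits lay a median of 86 bp before the start of the member gene (quartiles -184 to -25), with 18 of 21 upstream and 3 inside a noncoding first exon, and 12 within 100 bp. Measured from the nearest start of any gene the median was -61 bp, beside -46 bp for all promoter peaks. Of the 21 member peaks, 8 (38.1%, 20.8 to 59.1) fell in the promoter of another gene as well, each in a head-to-head pair on opposite strands. Counted in the same way, once for each protein-coding gene with the peak, it was 757 of 2861 over all genes (26.5%), which lies within that interval. A peak list cannot say which of the paired genes it concerns. Cct3 was 297 bp from Tsacc, and its summit lay nearer to Tsacc, at -79 bp, than to Cct3, at -218 bp. The same held for Bag1, 259 bp from the ESCRT gene Chmp5 (-184 against -75 bp), and for Hspb11, 159 bp from Lrrc42 (-170 against 11 bp). For Dnajc8, 145 bp from Atpif1, the inhibitor of ATP synthase, the summit was nearer to the chaperone (-17 against -128 bp). Cct5 was 270 bp from Atpsckmt, whose product methylates ATP synthase, and had its summit at 27 bp against -297 bp. Bag4 was 382 bp from the mRNA decay gene Lsm1, with its stronger summit nearer to Bag4 and the weaker nearer to Lsm1, at -133 bp.

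**Figure D3:**
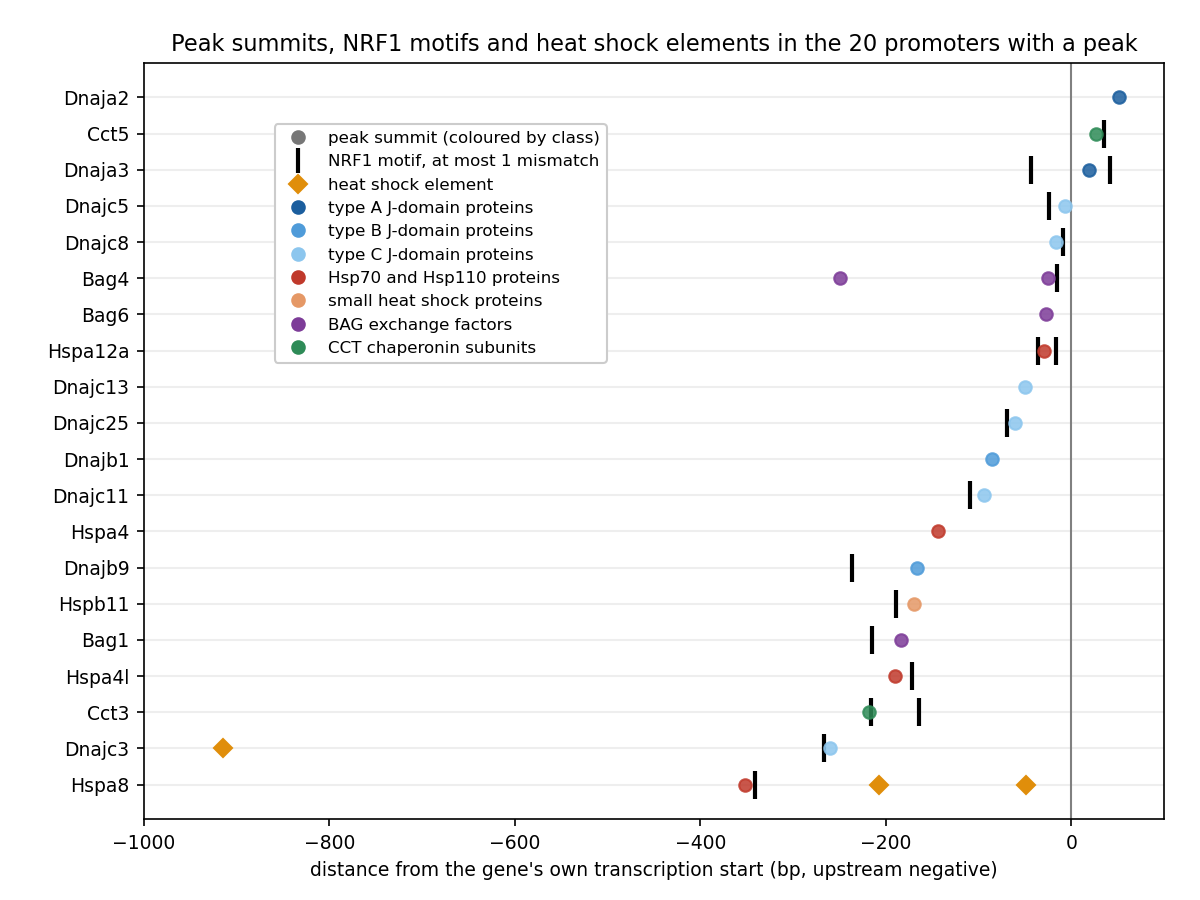
Positions of peak summits (circles, coloured by class), NRF1 motifs with at most 1 mismatch (ticks) and heat shock elements (diamonds) in the 20 member promoters with a peak, in bp from the start of the gene nearest to its summit. Most summits lie within 200 bp of the start and next to a tick, that of Hspa8 is farthest upstream at -352 bp with heat shock elements at -207 and -49 bp, and copies at other starts (Bag6, Cct5, Dnajb1) are not drawn.

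The letters of the promoter were then read without regard to the peaks, over the same 1000 bp before to 100 bp after each start. The NRF1 motif, with at most 1 mismatch, was present in 19 of 80 member promoters (23.8%, 15.8 to 34.1) and in 2544 of 21000 promoters of all genes (12.1%). Members with it had a peak in 17 of 19 cases (89.5%, 68.6 to 97.1), and genes in general in 75.4%. The motif was counted at any start of the gene. In Dnajb1 and Bag6 the copy lay at another start of the gene, not within 100 bp of the summit. Without it, 3 of 61 members had a peak (4.92%, 1.69 to 13.5), namely Dnaja2, Dnajc13 and Hspa4, beside 4.80% of genes in general. A match is a description of the letters and not a site of binding. The 2 members with the motif and no peak were Dnaja1, a cytosolic type A co-chaperone, and Dnajc5g, a paralog of the cysteine string protein.
Dnaja1 (chr4:40722892-40722921, plus strand): gggcagcgctGCGCACGCGCggagcaaggc
Dnajc5g (chr5:31108307-31108336, plus strand): cctacaaagtGCGCAAGCGCagtttccata
The capitals mark the motif copy. The copy of Dnaja1 was spelled as that of Hspa8 and was centred 15.5 bp before a start, and that of Dnajc5g 2.5 bp after one. Dnaja1 lay in a CpG-rich promoter and Dnajc5g did not.

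All 20 members with a peak, and 95.1% of all genes with a peak, had a CpG-rich start, defined as a window of 200 bp on either side at any start with at least 50% G and C and an observed to expected CpG ratio of at least 0.6. With or without a peak, this was so of 63 of 80 members (78.8%, 68.6 to 86.3) and 55.0% of all genes. Among CpG-rich genes, a peak was present at 20 of 63 members (31.7%, 21.6 to 44.0) and at 2668 of 11552 genes overall (23.1%), an interval that includes the share of all. The 17 members without such a start, among them Hspb2, Hspb3, Hspb7 and Hspb8, had no peak, beside 1.44% of such genes in general. Under the member peaks the GC content had a median of 70.7%, beside 66.7% under all promoter peaks.

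Heat shock factors bind inverted repeats of the letters GAA. The element searched was GAANNTTCNNGAA and its reverse complement TTCNNGAANNTTC, with no mismatch. It was found in 9 of 80 member promoters (11.2%), against 480 of 21000 (2.29%). Within 200 bp before to 100 bp after a start it was found in 5 members (6.25%, 2.70 to 13.8), against 0.610% of all genes. These were Cct4, Dnaja1, Dnajb6, Hspa8 and Hsph1. Of the 9, a promoter peak of NRF1 was present at Hspa8 and Dnajc3 (22.2%, 6.32 to 54.7, beside 11% of all genes with the element), and none met the rule at Cct4, Dnaja1, Dnajb2, Dnajb5, Dnajb6, Hspb2 and Hsph1. Among the 71 members without the element, 18 had a peak (25.4%), beside 13.4% of all genes without it. Windows of 29 bases, with the element in capitals, are shown for the members in which the element and the NRF1 motif occurred together.
Hspa8 (chr9:40801055-40801083, plus strand): gcgagcgtGAAAGTTCCAGAAcgccgcgg
Hspa8 (chr9:40801213-40801241, plus strand): cggcacccTTCTGGAAGGTTCtaagacag
Dnajc3 (chr14:118937003-118937031, plus strand): aaaagtgaTTCTGGAAGTTTCtttggcga
Dnaja1 (chr4:40722526-40722554, plus strand): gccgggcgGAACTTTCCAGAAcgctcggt
In Hspa8 the elements were centred at -207 and -49 bp, both between the NRF1 motif and the start. In Dnajc3 the element lay at -915 bp, upstream of the NRF1 motif at -266.5 bp. Hspa1a and Hspa1b had no element of this spelling in the window, which says only that these letters were not in it.

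The remaining 60 members had no promoter peak, and the nearest summit was a median of 70910 bp away, up to 5452499 bp for Hspa13. Over all protein-coding genes without a promoter peak the median was 186900 bp. A summit within 10000 bp of a start was found for 5 of the 60 (8.33%, 3.61 to 18.1), beside 5.18% of all such genes. Just outside the promoter window were Dnajb12, with a summit in its intron 349 bp after the start (fold 7.53), and Hspb9, with one at -1452 bp in the promoter of Kat2a (fold 9.44). Hspb6, Hspa1l and Hspa1a, given above, were the others. Since the read depth is unknown from a list of peaks, a gene without a peak cannot be called free of NRF1.

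Of 48 further genes of the chaperone and heat shock system, 16 had a promoter peak (33.3%, 21.7 to 47.5), beside 13.4% of all genes. Among those with a CpG-rich start it was 16 of 43 (37.2%, 24.4 to 52.1), beside 23.1% of such genes in general. Hsp90aa1, the inducible cytosolic Hsp90, had a fold of 23.0 with 3 copies of the motif, whereas Hsp90ab1, its constitutive paralog, had no peak. The Hsp90 co-chaperone Ptges3 (p23) had a fold of 12.5, and the co-chaperone genes Ahsa1, Cdc37, Fkbp4, Fkbp5, Ppid, St13, Stip1 and Stub1 had no promoter peak. The heat shock factor genes Hsf1 (17.9) and Hsf2 (15.0) had peaks at 6 and -2 bp from their starts, and Hsf4 had none. Among genes that deliver or fold clients, values were 23.4 for the prefoldin subunit Pfdn1, 18.3 for the myosin chaperone Unc45a, 17.8 for Sgta, 15.7 for Pdcl3 and 13.9 for Chordc1. Txndc9 (13.4) and Hspbap1 (8.0) were counted from summits at the far edge of the window, at -917 and -992 bp. The muscle form Unc45b had none, nor had the prefoldin genes Pfdn2, Pfdn4, Pfdn5, Pfdn6 and Vbp1. Among chaperones of organelles, Hspd1, the mitochondrial Hsp60, had 7.47, the mitochondrial exchange factors Grpel1 and Grpel2 7.51 and 8.87, Hsp90b1 of the endoplasmic reticulum 7.62, and Hyou1 a pair of peaks of 5.72 and 4.39. Trap1, Sil1 and Clpb, also of organelles, had no promoter peak. The peaks of Hsf1, Hsf2, Hsp90b1, Grpel1, Grpel2 and Hspbap1 also lay in the promoter of another gene. Hspe1, the partner of Hsp60, starts beside Hspd1 on the opposite strand, and the same summit fell 131 bp after its start, outside the promoter window.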

How the data were processed

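The data were 1 list of peaks from chromatin immunoprecipitation of NRF1 in wild-type mouse skeletal muscle. Per the study's methods, the authors mapped reads to mm10 with Bowtie, kept unique reads, removed blacklisted regions (the list named belongs to hg38, a human build), called peaks with MACS2 against input DNA and excluded those with an FDR over 0.01, although 7 of the 3226 deposited peaks had a q above it (none of a member). The MACS2 settings stated by the study include the broad-peak option, whereas the deposited list is one of narrow peaks with summits. The exact settings behind the deposited list are therefore uncertain. Peak boundaries and summits are given in bp as deposited. The deposited fold enrichment is the MACS2 ratio of signal to local background, computed by the authors. The authors' q-values were deposited as −log10 q. No source used here states that libraries were pooled, and the form on deposited data lists 1 library of NRF1 and 1 input for it. The read depth is unknown.

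Starts came from 45756 known RefSeq transcripts of the mm10 build on chromosomes that hold peaks, and genes were those with a coding one. Motifs were searched on both strands with Python 3.11.15 and pysam 0.24.0; the search was checked on simulated sequences. A motif is called near a summit when its centre lies within 100 bp. No test was run: shares carry Wilson 95% intervals and stand beside those of all genes, and no p-value is given because the members and lists were chosen with earlier results of these data known. Every member with a peak was named; those of the highest and lowest fold, in shared promoters or without the motif were given with position, q and summit. Promoter windows, annotations, thresholds on q and fold, and motif mismatches were varied, and a restriction to CpG-rich starts was added after seeing the data.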

Additional observations from a re-analysis of the deposited data

How the results depend on the processing

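Of 38 alternative values over 7 results, 35 stayed within the limits set for each (1.5 times for counts), and 3 moved, all with the mismatches allowed in the motif. With no mismatch the motif was at 4.76% of member peaks and in 1.25% of member promoters; with 2 allowed it was at 90.5% of member peaks, beside 10.9% and 91.1% of all promoter peaks. The number of members with a promoter peak ranged from 19 to 22. A q of at most 1e-05 removed Dnaja2, GENCODE M21 basic starts removed Hspa12a (Cct6a was not matched there by symbol, leaving 79 members), and a window of 2000 bp before to 500 bp after a start added Dnajb12 and Hspb9. The count of all genes ranged from 2677 to 3085 over the same settings, and was 2668 of 11552 among CpG-rich genes, a restriction chosen after seeing the data. The count of members could not change under that restriction, because all 20 with a peak had a CpG-rich start. The share of all genes did change, from 13.4% to 23.1%, which the interval of the CpG-rich members (21.6 to 44.0) includes.

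No replicate was left out in turn, since there was a single peak list. No paired analysis was possible because there was no second group to pair with. Unknown read depth limits what can be said of genes without a peak, and summits in head-to-head promoters cannot be assigned to 1 gene.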
